A study of Mus musculus with 2 samples.

Results

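The small nucleolar RNA (snoRNA) host genes described here were Gas5, Snhg1, Snhg3, Snhg5, Snhg6, Snhg8 and Snhg12. These 7 genes were chosen by name out of 49943 genes in the mouse RefSeq table. The rule used no measured value, but earlier results of these data were known when the genes were chosen, which limits what their count of peaks can show against other genes. Their positions were compared with Dlx5 binding in a T-cell lymphoma of Lck-Dlx5 mice, in which the Lck promoter drives a Myc-tagged Dlx5 transgene in thymocytes. The series holds 1 chromatin immunoprecipitation (ChIP-seq) library made with a Myc-Tag antibody and 1 Input library, with no replicates. The sample labels give both as primary tumor, of strain C57BL/6 for the ChIP and C57BL/7 for the Input, while the methods name a single lymphoma cell line and an IgG control. The age of the animal is not given in the sources used here. A peak was assigned to a gene where the summit of a Myc-Tag interval lay within 1 kb of either gene end.

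By this rule 4 of the 7 host genes had a Myc-Tag summit, namely Snhg1, Snhg3, Snhg6 and Snhg8, and Gas5, Snhg5 and Snhg12 had none. This was 57.1% of the members, against 3.03% of all 12727 long noncoding RNA (lncRNA) genes, 10.8% of all 21887 protein-coding genes and 5.82% of all genes in the table. The summit heights were 19 at Snhg3, 17 at Snhg1, 17 at Snhg8 and 12 at Snhg6. The height is a whole number deposited with each summit, without a stated normalization. Since read totals were not analysed here, the depth behind a height is unknown.

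Most snoRNAs of mammals are cut out of the introns of longer host transcripts. Box C/D snoRNAs guide methylation of the ribose in ribosomal RNA, and box H/ACA snoRNAs guide conversion of uridine to pseudouridine. The hosts described here encode no known protein of conserved function, and their spliced RNAs are often removed by nonsense-mediated decay, so that the introns carry much of the product. Like ribosomal protein mRNAs, transcripts of several such hosts begin with a tract of pyrimidines (C and T), the 5' terminal oligopyrimidine tract that ties their stability and translation to growth signals. Gas5, the growth arrest-specific transcript, accumulates in resting T cells.

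The sequences at the RNA starts are shown because the 4 intervals lay at gene ends, and because they allow the hosts with and without an interval to be compared. A window of 300 bases, from 250 bases before the annotated start, was in the RefSeq table of build GRCm38.p6 (mm10) for 6 of the 7 genes. Each is printed on the strand of the gene. Capitals mark TATAA or its reverse complement TTATA, and the longest run of C and T that overlaps the 10 bases before the start or the 20 bases from it on. The first 3 windows belong to hosts with a Myc-Tag interval: Snhg1 (chr19:8723237-8723536, plus strand), Snhg3 (chr4:132353637-132353936, minus strand) and Snhg8 (chr3:123508287-123508586, minus strand). The other 3 belong to hosts without one: Gas5 (chr1:161034916-161035215, plus strand), Snhg12 (chr4:132308428-132308727, plus strand) and Snhg5 (chr9:88522848-88523147, minus strand).
Snhg1: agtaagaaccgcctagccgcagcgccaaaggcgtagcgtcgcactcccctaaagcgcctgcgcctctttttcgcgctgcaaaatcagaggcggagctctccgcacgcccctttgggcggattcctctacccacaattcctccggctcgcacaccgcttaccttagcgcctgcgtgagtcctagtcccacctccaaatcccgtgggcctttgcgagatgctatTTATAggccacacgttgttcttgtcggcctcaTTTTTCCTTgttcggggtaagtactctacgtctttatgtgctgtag
Snhg3: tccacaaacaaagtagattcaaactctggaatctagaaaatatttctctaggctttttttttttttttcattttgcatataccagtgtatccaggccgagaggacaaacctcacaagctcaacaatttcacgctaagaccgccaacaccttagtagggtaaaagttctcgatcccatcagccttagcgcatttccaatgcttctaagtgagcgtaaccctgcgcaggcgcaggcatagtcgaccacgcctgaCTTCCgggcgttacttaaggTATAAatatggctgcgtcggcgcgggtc
Snhg8: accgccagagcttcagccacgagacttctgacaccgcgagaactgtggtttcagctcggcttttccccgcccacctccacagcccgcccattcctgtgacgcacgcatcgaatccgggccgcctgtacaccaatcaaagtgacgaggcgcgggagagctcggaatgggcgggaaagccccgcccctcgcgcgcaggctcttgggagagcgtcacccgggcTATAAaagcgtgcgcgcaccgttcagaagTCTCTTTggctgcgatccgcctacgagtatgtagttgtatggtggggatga
Gas5: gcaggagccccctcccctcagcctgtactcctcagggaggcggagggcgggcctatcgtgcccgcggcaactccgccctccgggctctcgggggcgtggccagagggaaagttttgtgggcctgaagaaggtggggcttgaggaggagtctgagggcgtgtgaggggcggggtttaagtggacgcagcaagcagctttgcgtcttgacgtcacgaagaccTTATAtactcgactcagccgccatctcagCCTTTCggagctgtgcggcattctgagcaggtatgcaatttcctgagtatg
Snhg12: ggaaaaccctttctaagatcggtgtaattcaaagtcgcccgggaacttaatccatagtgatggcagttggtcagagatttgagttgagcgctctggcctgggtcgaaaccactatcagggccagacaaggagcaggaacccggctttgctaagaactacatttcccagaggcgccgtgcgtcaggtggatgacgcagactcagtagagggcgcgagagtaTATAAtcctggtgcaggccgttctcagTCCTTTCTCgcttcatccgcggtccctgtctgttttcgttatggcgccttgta
Snhg5: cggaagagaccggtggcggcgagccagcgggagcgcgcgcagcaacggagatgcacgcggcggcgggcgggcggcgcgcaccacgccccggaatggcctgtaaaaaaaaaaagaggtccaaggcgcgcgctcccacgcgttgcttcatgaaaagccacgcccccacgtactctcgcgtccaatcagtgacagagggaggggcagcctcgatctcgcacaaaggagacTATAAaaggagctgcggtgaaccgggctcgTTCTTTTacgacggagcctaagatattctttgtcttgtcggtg

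All 6 hosts with a window carried TATAA on either strand, the 3 with an interval and the 3 without, though Gas5 did so in only 1 of its windows, whereas 24.9% of the 32851 start windows in the table did. In 5 of the 6 its first base lay between 40 and 20 bases before the start, a placement found in 4.35% of all windows. The first base was 30 bases before the start in Snhg8, Gas5 and Snhg12, 28 bases before it in Snhg1 and 23 bases before it in Snhg5. In Snhg3 the motif began 22 bases after the annotated start. Gas5 has another annotated start 565 bp upstream, at the end of the gene with the lower coordinate. The window of that start held none of the motifs searched, had a GC content of 73.7% with 33 CpG dinucleotides, and its C/T run was 3 bases long. The downstream window was printed because it holds the motif, a choice made after its letters were seen. The pyrimidine run was 9 bases long in Snhg1 and Snhg12, 7 in Snhg8 and Snhg5, 6 in the printed window of Gas5 and 5 in Snhg3, and the median over all windows was 5. Runs of at least 6 bases were in 36.3% of all windows, and of at least 8 in 16.9%. The runs of Snhg12, Snhg8 and Gas5 covered the annotated start. Those of Snhg1, Snhg5 and Snhg3 began 4, 7 and 2 bases after it, so they are not tracts at the annotated first base. Neither feature separated the hosts with an interval from those without.

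TAATT is the core motif of Dlx proteins, which are homeodomain transcription factors. Searched on both strands (TAATT and AATTA), it was absent from the windows of Snhg1, Snhg3 and Snhg8 and was found in that of Snhg12, 226 bases before the start. Of all start windows 27.0% held it. The absence says only that these letters are not in these 300 bases, and the interval of each host also covered sequence outside the window. The summits of Snhg3 and Snhg8, 86 and 112 bp downstream of the start, lay beyond the window, so the sequence at these summits was not searched. CCAAT, a motif of many promoters, occurred in Snhg3, Snhg8 and Snhg5 and in 37.4% of all windows. TTCCGG, a form of the Ets factor motif, occurred in Snhg3 and Snhg5 and in 14.9% of windows. In Snhg3 it shares bases with the marked pyrimidine run. The E-box CACGTG, bound by Myc and Max, was in none of the 6 and in 7.15% of all windows. The GC content of the windows was 56.7% in Snhg1, 46.0% in Snhg3 and 62.0% in Snhg8, and 62.0% in the printed window of Gas5, 53.0% in Snhg12 and 62.0% in Snhg5. These values overlap between the hosts with and without an interval, and the median over all windows was 52.7%. CpG dinucleotides numbered 25, 16 and 30 in Snhg1, Snhg3 and Snhg8 and 19, 18 and 36 in the printed Gas5 window, Snhg12 and Snhg5, above the median of 7 over all windows.

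Across the library, the authors deposited 3477 Myc-Tag intervals and 28 Input intervals, and each Input interval matched a Myc-Tag interval in start and end. The median Myc-Tag height was 16 (interquartile range 13 to 19), and the lowest was 9. The labels name build mm9, but 58.4% of the summits lay within 1 kb of an end of a protein-coding gene in the coordinates of mm10, which were used here. Intervals are given with starts counted from 1. Since 3329 of the summits, including all 4 at the members, sit on multiples of 16 bp, a summit is not exact to the base.

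Snhg3 had the tallest summit of the group. Its introns carry Snora73a and Snora73b, the H/ACA snoRNAs also known as U17 or E1, which act in processing of the ribosomal RNA precursor. The gene lies on chromosome 4 from 132351933 to 132353686, and the interval from 132353172 to 132353863 was 692 bp wide. The summit at 132353600, with a height of 19, lay inside the gene, 86 bp downstream of its start. Of all Myc-Tag summits, 773 (22.2%) were taller. The interval ended short of both snoRNA genes, the nearer of which was 621 bp from the summit. No other gene apart from the snoRNAs had an end within 1 kb of this summit, and Phactr4, a regulator of protein phosphatase and actin, was the nearest named protein-coding neighbor, with its end 2322 bp away.

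Snhg8 is the shortest of the hosts, at 785 bp, and carries the H/ACA snoRNA Snora24. It spans 123507552 to 123508336 of chromosome 3. The interval from 123507892 to 123509035, 1144 bp wide, was the widest at a member, and 461 intervals (13.3%) of the library were wider. Its summit at 123508224 had a height of 17 and lay 112 bp downstream of the start. The interval reached 699 bp beyond the gene and covered all 130 bp of Snora24, the only one of the 26 snoRNA genes inside the members that an interval overlapped. Prss12, which encodes the protease neurotrypsin, has an end 950 bp from the other end of Snhg8, but this end was 1622 bp from the summit and the gene was not counted as having a peak.

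Snhg1 carries 8 snoRNA genes, among them Snord22 (U22), a C/D snoRNA needed for maturation of 18S ribosomal RNA. The gene spans 8723487 to 8726326 of chromosome 19, and the interval from 8722764 to 8723838 was 1075 bp wide. The summit at 8723424, with a height of 17, lay outside the gene, 63 bp upstream of the start. It fell between Snhg1 and Slc3a2, the heavy chain (CD98) of several amino acid transporters, whose gene end with the higher coordinate is 118 bp from the start of Snhg1. The summit was 55 bp from that end, so that 1 interval was counted at both genes and the peak cannot be assigned to either. At Snhg1 and Snhg8, equal heights were exceeded by 1179 summits (33.9%).

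The summit at Snhg6 was the lowest of the group. Snhg6, the host of the C/D snoRNA Snord87 (U87), spans 9942025 to 9944118 of chromosome 1. The interval from 9943759 to 9944382 was 624 bp wide, the narrowest at a member. Its summit at 9943984 had a height of 12 and lay inside the gene, 134 bp from the end with the higher coordinate. Of all summits 2829 (81.4%) were taller and 332 were lower. Snhg6 overlaps Mcmdc2, a gene of meiotic recombination, by 1582 bp, and the end of Mcmdc2 was 378 bp from the same summit. As at Snhg1, the interval was therefore counted at a protein-coding gene as well.

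**Figure D1:**
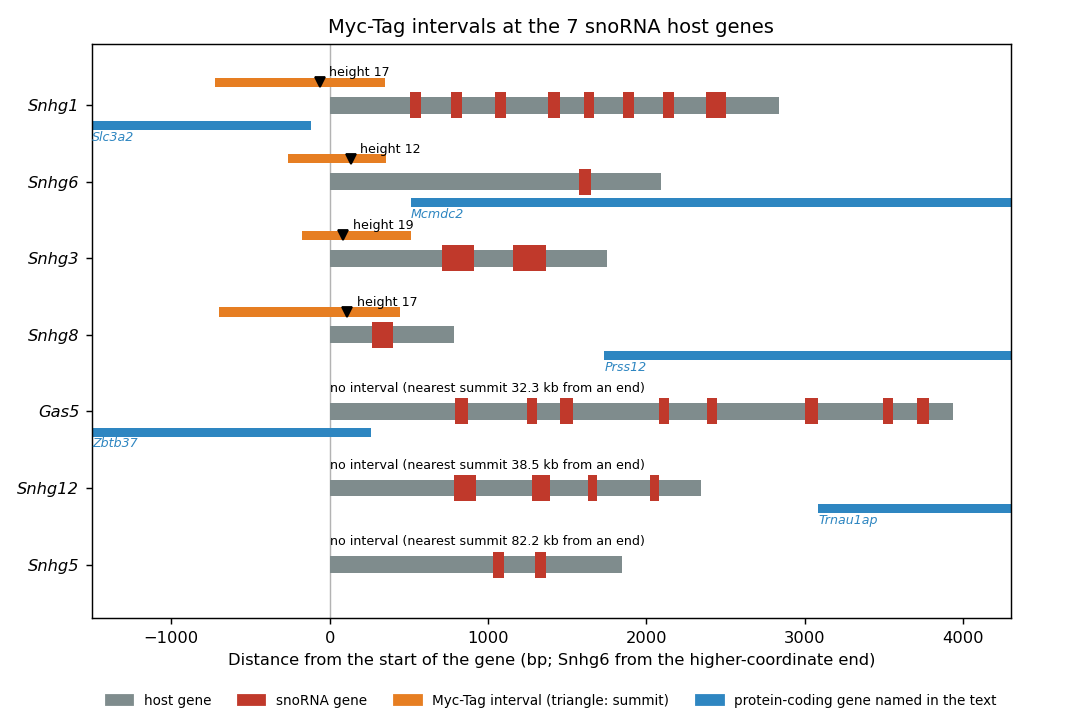
The 7 host genes (grey) drawn from their start at 0 bp (Snhg6 from the end with the higher coordinate), with snoRNA genes (red), Myc-Tag intervals (orange, summit as a triangle with its height) and the protein-coding genes named in the text with an end within 1 kb of a host end (blue). The 4 summits lie between 63 and 134 bp from a host gene end, and at Snhg1 and Snhg6 a protein-coding end is 55 and 378 bp from the same summit.

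The summits of these 4 genes were 63 to 134 bp from the gene end. Over the 390 Myc-Tag summits within 1 kb of an lncRNA gene end, the median distance was 278.5 bp (interquartile range 112 to 532 bp). A protein-coding gene end was also within 1 kb for 2 of the 4 member summits and for 241 of the 390 (61.8%). The Input list held none of these 4 intervals. On the chromosomes of the members the nearest Input summit was between 52.47 and 129.26 Mb away, so the Input list holds no value at any host gene. No other interval was found nearby, as the same 4 summits were the only ones in a member gene or within 10 kb of it. By that wider rule 7.23% of all lncRNA genes had a summit.

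Gas5, Snhg12 and Snhg5 had no Myc-Tag interval within reach of either rule. At Gas5 (chromosome 1, 161034601 to 161038539), which holds 8 snoRNA genes including Snord47, the nearest summit was 32309 bp from the gene. The gene overlaps Zbtb37, a zinc finger gene, by 264 bp at its start, and Zbtb37 had no summit within 1 kb of an end. The nearest summit, at 161070848 with a height of 12, lay 81 bp inside an end of Cenpl, which encodes a centromere protein, so that this coding gene was counted and the snoRNA host was not.

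Snhg12 (chromosome 4, 132308678 to 132311024) holds 4 snoRNA genes, Snora16a, Snora44, Snora61 and Snord99. It lies on the same chromosome as Snhg3, whose summit was its next nearest. The nearest was 38534 bp away, in an interval from 132269631 to 132270667 with a summit inside Rnu11, the gene of the U11 RNA of the minor spliceosome. That summit had a height of 64, exceeded by 16 of the 3477, and was not called in the Input. Trnau1ap, which acts in selenoprotein synthesis and has an end 739 bp from Snhg12, had no summit within 1 kb. Snhg5 (chromosome 9, 88521052 to 88522897) holds 2 snoRNA genes and is listed with the synonym mU50HG-b, for host of the C/D snoRNA U50. The nearest summit, of height 17, was 82236 bp away at an end of Snx14, a sorting nexin. Binding at these 3 hosts was not detectable at the calling threshold, which does not show that it was absent.

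Other properties overlapped between the hosts with and without a summit. The genes with one were 785 to 2840 bp long and held 1 to 8 snoRNA genes. Those without one were 1846 to 3939 bp long and held 2 to 8. All were short for their class, with a median length of 2.09 kb over the 7 hosts against 8.43 kb over all lncRNA genes and 17.17 kb over protein-coding genes. The part of gene length and of shared coding gene ends in the members' count was not tested. Hosts of C/D snoRNAs (Snhg1 and Snhg6) and of H/ACA snoRNAs (Snhg3 and Snhg8) were both among those with a summit. None of the 7 genes lies on chromosome 15.

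The median height at the members lay near the middle of the library. It was 17, against 15 for the summits within 1 kb of an lncRNA gene end and 16 for all Myc-Tag summits. The height of 12 at Snhg6 was below the 25th percentile of the library, 13, and that of 19 at Snhg3 was at the 75th percentile. With 1 library there is no replicate error, so the order of 19, 17, 17 and 12 could not be tested and may not differ beyond the spread between samples.

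**Figure D2:**
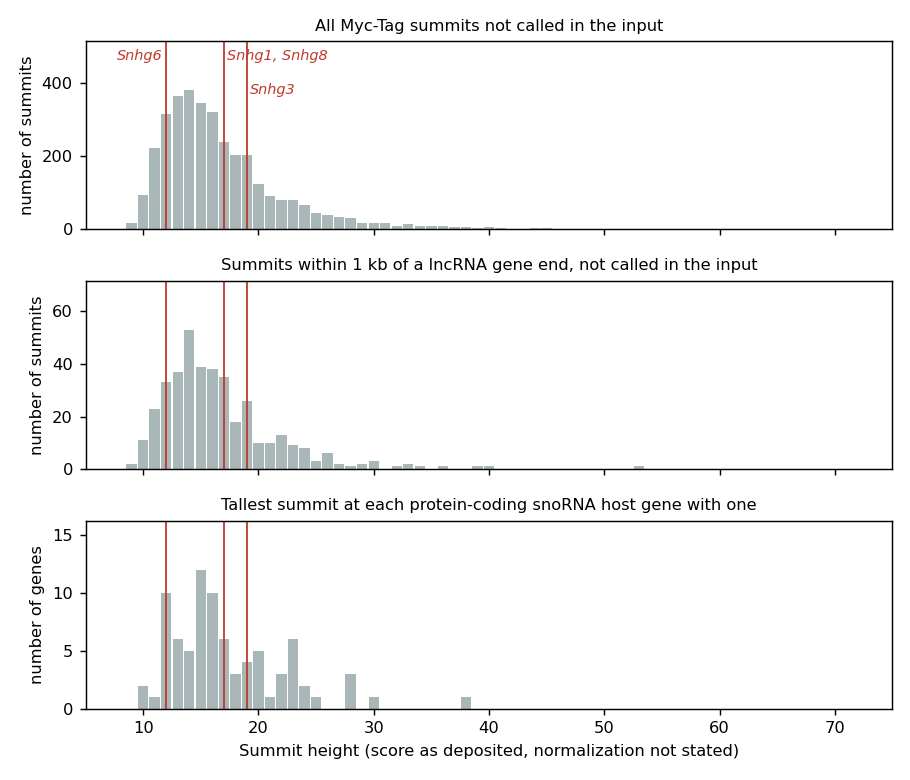
Number of summits or genes (y axes) by summit height (x axis, score as deposited) for all Myc-Tag summits not called in the input, for those within 1 kb of an lncRNA gene end, and for the tallest summit at each protein-coding snoRNA host gene. Red lines mark the members, at 12 (Snhg6), 17 (Snhg1 and Snhg8) and 19 (Snhg3). Over the whole library the 25th percentile was 13, above the height at Snhg6, and the 75th percentile was 19, the height at Snhg3.

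Among the 11 other noncoding genes named Snhg, from Snhg4 to Snhg20, 1 (9.09%) had a summit by the same rule. It was Snhg20, with a height of 11 and the summit 81 bp inside the gene, and the RefSeq table places no snoRNA gene in it. Of the 11 genes, 9 hold a snoRNA gene in the table, and none of these met the rule. Snhg4 had a summit of height 18 at 3668 bp from its end. Apart from Snhg20 and Snhg4, the remaining 9 genes were 89.0 to 1550.8 kb from the nearest summit. Among protein-coding genes, 372 held a snoRNA gene of the table, which includes predicted snoRNAs, and 82 of them (22.0%) had a summit by the 1 kb rule. A gene was counted as a host wherever a snoRNA gene lay inside its span, on either strand, so some may not be the true host. Mcmdc2 was counted in this way through Snord87 of Snhg6 and the summit it shares with Snhg6. The list is therefore not separate from the members. The median tallest height of the 82 genes was 16, with the tallest at Rabggtb (38), a prenyltransferase subunit, and Rps12 (30), a ribosomal protein of the small subunit. Split by name, 15 of 30 ribosomal protein hosts had one, as did 67 of the 342 other coding hosts (19.6%). This split was made after the values were seen.

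Of the 8 core proteins of snoRNA ribonucleoprotein particles (snoRNPs), 3 (37.5%) met the rule. They were Nop56 (height 16) and Nop58 (13), which form the C/D particle, and Snu13 (15), which binds the kink-turn of C/D snoRNAs. Nop56 and Nop58 are themselves hosts, with 5 and 4 snoRNA genes in their bodies, and are also counted among the protein-coding hosts above. Dkc1, with 1 snoRNA gene in its body, had no summit. The 5 genes without a summit also included Fbl, the methyltransferase of the C/D particle, and, like Dkc1, the H/ACA proteins Nhp2 and Nop10. None of 10 assembly factors of these particles, such as Nufip1, Ruvbl1, Naf1 and Nolc1, had a summit. Of 10 nonsense-mediated decay factors, which act on the spliced host RNAs, 3 (30.0%) had one, namely Smg8 (height 19), Upf3a (18) and Upf2 (15), and Upf1 and Smg1 were among those without.

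**Figure D3:**
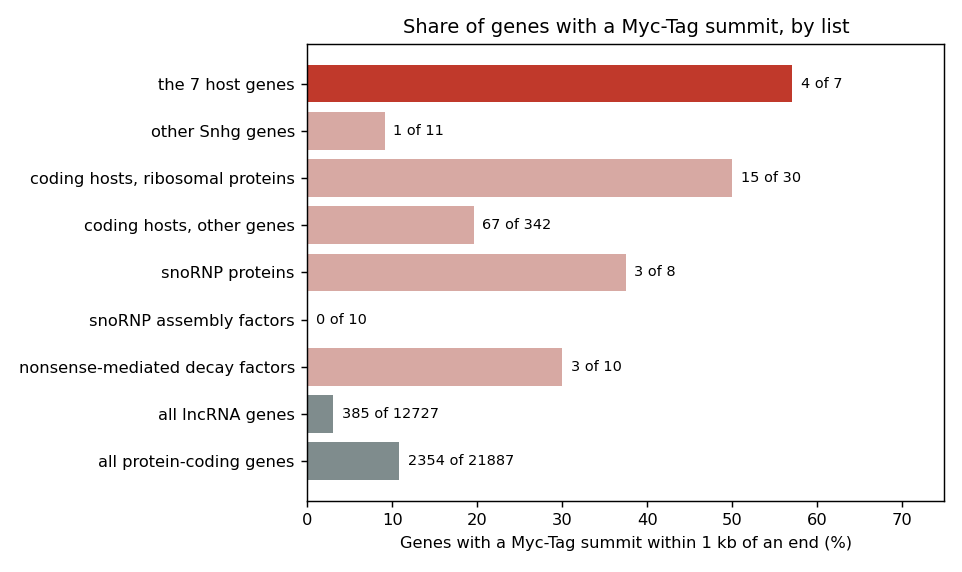
Percentage of genes (x axis) with a Myc-Tag summit within 1 kb of an end, for the 7 host genes, related gene lists and all lncRNA or protein-coding genes, with the number of genes beside each bar. The bar of the 7 hosts stands at 57.1%, the ribosomal protein hosts are 15 of 30, and that of the other Snhg genes stands at 9.09%.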

How the data were processed

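A service company (Active Motif) sequenced the libraries on the Illumina GA II and called intervals with MACS. The submitters' processing notes name BWA and mm9. The authors deposited browser tracks of intervals and summits for each library, in which the score is the summit height as a whole number of unstated normalization. The control and threshold used for calling are not given in the sources used here.

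Each summit was joined to the interval holding it. Genes came from the RefSeq table of GRCm38.p6, whose coordinates are those of mm10. Strand and start windows came from its table of 300-base windows. All genes on assembled chromosomes were counted by the same rule, a summit within 1 kb of an end, to give the background. No test was run, since each group has 1 library. Members and lists were chosen with earlier results of these data known. The genes named were the members, their neighbors within 1 kb, and at most 4 with and 4 without a summit from each other list, and neighbors farther away were chosen after their values were seen. The result for 1 gene covered by this rule is not reported here. The counting was checked on simulated summits placed at known distances from the higher-coordinate end of long, isolated protein-coding genes. This checks only that the distance rule was applied, and it did not cover short genes close to others, such as the members. Python 3.11.15, numpy 2.4.6, pandas 2.3.3 and matplotlib 3.10.9 were used.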

Additional observations from a re-analysis of the deposited data

How the results depend on the processing

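Among the 40 values recomputed with 1 choice changed, 36 were within 1.5 times the reported count or kept the median height, and 4 moved further. All 4 came from a stricter height, which leaves fewer summits by construction. With heights of at least 19, the 75th percentile, 1 member was left, Snhg3. With heights of at least 16, the median, 3 members were left, without Snhg6, and the counts that moved were 0 of the other Snhg genes, 1 of the snoRNP proteins and 46 of the protein-coding hosts. The 4 members were the same with 500 bp, with 2 kb, with any base of the interval in place of the summit, and with the Input intervals left out. Counting annotated starts alone gave 3, since Snhg6 has no start window in the table. Within 50 kb, 6 members had a summit. No paired analysis was possible because only 1 library stands for each group, and for the same reason no replicate could be left out. Heights carry no depth, so a missing interval limits binding only at the unknown calling threshold.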

Other observations

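Some lncRNA genes outside the Snhg names that hold a snoRNA gene also had summits at their ends. This list was made after the values were seen, by taking every lncRNA gene of the table whose body holds a snoRNA gene and leaving out the 7 members. It keeps the 9 other Snhg genes that hold a snoRNA gene, none of which met the rule, so it is not separate from the list of other Snhg genes above. Of these 101 genes, 10 (9.90%) had a Myc-Tag summit at most 1 kb from an end, with heights from 10 to 24. They included Zfas1 (height 17, with 3 snoRNA genes), a host whose gene overlaps an end of Znfx1, and Dancr (height 12, with 1 snoRNA gene), which was named after its value was seen. The tallest was at 1700120C14Rik (24) on chromosome 15, followed by 2410006H16Rik (20), which holds 3 snoRNA genes. The share in all lncRNA genes was 3.03%. As in the coding list, a gene was counted wherever a snoRNA gene lay inside its span, on either strand, so some may not be the true host. The median length of the 101 genes was 25.45 kb, against 2.09 kb over the members. How many of the 10 genes share their summit with a protein-coding gene end was not counted.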
